A study of Mus musculus with 8 samples.

Results

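Plastins, other actin-bundling proteins and the ezrin, radixin and moesin (ERM) linkers were described across d6PGCLCs and E12.5 PGCs. The set was gathered around Lcp1 and held 10 mouse genes, matched to the deposited read counts by Entrez identifier: the plastins Lcp1, Pls1 and Pls3, the bundlers Fscn1, Actn1, Actn4 and Vil1, and the ERM genes Ezr, Msn and Rdx. Of these, 9 were found among the 21950 genes counted, and Rdx was not analysed here. The set was chosen by function, around Lcp1, with the read counts of these same 8 libraries already known. The members' levels and fold changes are therefore given as a description, without p-values. Counts of members that passed a threshold are printed, but nothing is read from them.

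PGCs are the embryonic precursors of eggs and sperm, and PGCLCs are their counterparts made in culture from pluripotent stem cells. The d6PGCLC group comprised 4 pools from 1 female mouse BVSC-iPSC line, made from tail tip fibroblasts and carrying the Blimp1-Venus and Stella-ECFP reporter transgenes. These cells were collected at day 8 of culture, 6 days after leaving the EpiLC state, and were sorted as positive for both reporters. They had passed through an EpiLC culture on fibronectin, and the PGCLC step then began in medium with BMP4, SCF, LIF and EGF, which was changed at day 6 for medium with SCF, LIF and EGF. The E12.5 PGC group comprised 4 pools of germ cells from female gonads of C57BL/6J fetuses, sorted for SSEA1 and integrin β3. Each pool held 30000 to 340000 cells from an independent experiment and gave 1 stranded poly(A) RNA library. Cell line against strain, culture against embryo, reporter against surface sort and developmental stage all differ between the groups together and cannot be told apart.

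Actin filaments gain stiffness and shape when cross-linking proteins hold them in parallel bundles or looser networks. Plastins and alpha-actinins bind actin through paired calponin homology domains, fascin packs filaments into the tight bundles of filopodia, and villin bundles or severs filaments in microvilli. ERM proteins, once activated, tie the cortical filaments to the plasma membrane. Mouse PGCs are motile cells that travel from the hindgut to the genital ridges, where they have settled by E12.5, and such movement draws on the actin cortex.

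The counted reads ranged from 8054596 to 12024841 in d6PGCLC libraries and from 7991437 to 11166023 in E12.5 PGC libraries, so that 3 counts correspond to 0.249 to 0.383 counts per 1000000 counted reads (CPM). All 9 germ cell markers shared by PGCs and PGCLCs were detected in both groups, with a summed level of 5314.4 to 5947.0 CPM in d6PGCLCs, compared with 3513.5 to 3869.1 CPM in E12.5 PGCs. Within this sum, Dnd1 was lower in every d6PGCLC library (265.3–289.7 against 379.5–447.4 CPM), Kit and Nanos3 overlapped, and the others were higher. The gonadal germ cell genes Dazl and Ddx4 summed to 45.06–106.7 CPM across d6PGCLC libraries against 1644.0–2377.5 CPM across E12.5 PGC libraries. Among the E12.5 PGC libraries, replicate 2 stood apart by its heat-shock and dissociation genes, which summed to 1116.1 CPM against at most 556.7 CPM in the other 7 libraries (Hspa1a at 144.4 CPM and Hspa1b at 181.1 CPM), and by erythroid genes at 31.46 CPM against at most 4.12 CPM. Replicate 4 held 99 counts of Y-linked genes, although its label names female gonads, and the other 7 libraries held 0. Without E12.5 PGC replicate 2 the log2 fold change of Lcp1 was 4.12, that of Pls1 was −1.98 and that of Ezr was 0.99. Without replicate 4 these values were 4.21, −1.92 and 1.05, respectively. In bulk samples, fewer cells of a type and less RNA per cell cannot be told apart.

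The largest differences in the set lay among the plastins. Lcp1, which encodes L-plastin, the plastin of leukocytes and of many tumor cells, lies on chromosome 14 (Entrez 18826; GRCm38 chr14:75131105-75230842, plus strand). It stood at 276.7, 278.2, 238.4 and 306.7 CPM in the d6PGCLC libraries 1 to 4, and at 14.47, 14.73, 15.21 and 17.69 CPM in the E12.5 PGC libraries 1 to 4. Every d6PGCLC library was therefore far above every E12.5 PGC library, and within each group the highest library exceeded the lowest by no more than 1.29-fold. The fitted log2 fold change of d6PGCLC over E12.5 PGC was 4.14 ± 0.11 (SE, n = 4 per group), a 17.6-fold higher level in d6PGCLCs. By this value Lcp1 ranked 48 from the highest among the 11487 genes with a mean of at least 1 CPM. The raw counts behind these levels were 2168 to 2873 in d6PGCLCs and 116 to 196 in E12.5 PGCs.

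Pls1, which encodes I-plastin of intestinal microvilli and hair-cell stereocilia, differed in the opposite direction (Entrez 102502; chr9:95752642-95845306, minus strand). Its levels were 22.34, 18.12, 16.26 and 21.94 CPM in d6PGCLCs and 92.32, 58.61, 71.55 and 67.88 CPM in E12.5 PGCs. The groups did not overlap, and the lowest E12.5 PGC library was still above the highest d6PGCLC library. The log2 fold change was −1.89 ± 0.14 (SE, n = 4 per group), which is a 3.70-fold lower level in d6PGCLCs and lies just short of the study's fold threshold of 2 on the log2 scale.

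Pls3, which encodes T-plastin of solid tissues, is X-linked (Entrez 102866; chrX:75785653-75875182, minus strand). It stood at 112.6, 115.5, 158.2 and 190.8 CPM in d6PGCLCs and at 110.5, 107.6, 121.2 and 121.8 CPM in E12.5 PGCs. The groups overlapped, because d6PGCLC replicates 1 and 2 lay within the E12.5 PGC range while replicates 3 and 4 lay above it. Its coefficient of variation was 25.9% across d6PGCLC libraries and 6.28% across E12.5 PGC libraries. The log2 fold change was 0.32 ± 0.13 (SE), and 0.16 without d6PGCLC replicate 4. The median log2 fold change of the 431 X-linked genes with a mean of at least 1 CPM was −0.07, against 0.01 for 11056 other genes at that level.

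**Figure D1:**
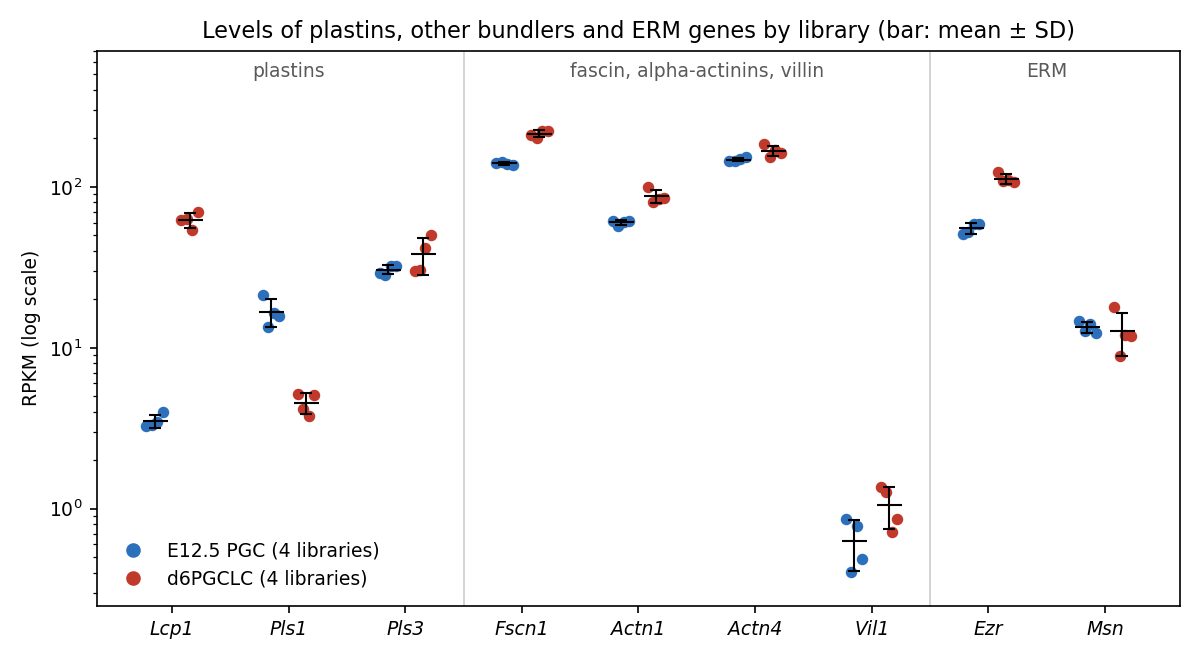
Level of each of the 9 genes in RPKM (vertical axis, log scale) in the 4 E12.5 PGC libraries (blue) and the 4 d6PGCLC libraries (red), with black bars for the mean ± SD. The 4 d6PGCLC libraries sit between 53.8 and 69.3 RPKM for Lcp1, above the 3.27 to 4.00 RPKM of E12.5 PGCs, whereas Pls1 lies the other way and Pls3, Vil1 and Msn overlap.

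The promoter windows of the plastins are shown because these paralogs differed in opposite directions. The windows are RefSeq sequences of GRCm38.p6, run from 250 bases before to 50 bases after an annotated start, and read 5′ to 3′ on the strand of the gene. CG dinucleotides are in capitals. The first Lcp1 window covers chr14:75130873-75131172, the second chr14:75136175-75136474, the Pls1 window chr9:95845230-95845529 and the Pls3 window chrX:75875133-75875432, 1 of 3 windows listed for Pls3 and the farthest upstream. Which of the Lcp1 or Pls3 starts was used in these cells was not determined.
Lcp1, first start: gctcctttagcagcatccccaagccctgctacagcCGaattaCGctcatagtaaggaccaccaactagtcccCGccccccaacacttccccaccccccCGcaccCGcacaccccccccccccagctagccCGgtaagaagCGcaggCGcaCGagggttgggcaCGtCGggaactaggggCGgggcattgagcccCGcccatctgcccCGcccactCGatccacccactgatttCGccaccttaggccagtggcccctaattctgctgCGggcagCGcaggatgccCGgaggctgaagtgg
Lcp1, second start: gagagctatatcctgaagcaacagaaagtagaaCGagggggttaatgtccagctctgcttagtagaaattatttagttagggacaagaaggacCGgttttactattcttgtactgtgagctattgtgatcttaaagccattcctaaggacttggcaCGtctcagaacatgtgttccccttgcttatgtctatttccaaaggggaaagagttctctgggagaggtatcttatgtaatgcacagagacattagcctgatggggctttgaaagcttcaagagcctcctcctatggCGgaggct
Pls1: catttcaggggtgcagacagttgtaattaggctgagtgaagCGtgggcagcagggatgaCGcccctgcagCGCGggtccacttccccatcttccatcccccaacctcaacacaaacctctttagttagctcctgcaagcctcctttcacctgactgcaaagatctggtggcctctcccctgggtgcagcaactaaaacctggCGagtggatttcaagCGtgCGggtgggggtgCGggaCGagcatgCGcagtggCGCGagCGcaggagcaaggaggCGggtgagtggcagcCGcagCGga
Pls3, upstream start: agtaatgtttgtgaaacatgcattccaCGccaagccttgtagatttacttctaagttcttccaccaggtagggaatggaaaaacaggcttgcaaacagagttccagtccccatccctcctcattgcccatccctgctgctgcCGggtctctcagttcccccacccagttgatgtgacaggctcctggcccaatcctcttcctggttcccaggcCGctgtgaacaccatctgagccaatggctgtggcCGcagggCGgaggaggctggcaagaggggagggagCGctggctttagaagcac

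The first Lcp1 window held 19 CG dinucleotides, more than 71.9% of the 32851 windows of this length, and the second held 4, more than 31.4% of windows. The Pls1 window held 16 CG dinucleotides and the printed Pls3 window held 6, against a median of 7. Of the other Pls3 windows, chrX:75875121-75875420 overlaps the printed window and also held 6, and chrX:75842972-75843271 held 3. The letters GGGCGG, which contain a CG and were searched on both strands, occurred 4 times in the first Lcp1 window, 0 times in the second and in the Pls1 window, once in each of the 2 overlapping Pls3 windows and 0 times in the other. These letters occurred in 35.7% of all windows. The letters TATAAA, found in 13.6% of all windows on either strand, occurred in none of the plastin windows printed here. Among the other members, the windows of Ezr and Actn4 were the richest, with 38 and 35 CG dinucleotides, and that of Vil1 held 5. These counts describe the sequence and were not related to the levels by any test.

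Dividing by exonic length puts the paralogs on a common scale (RPKM, the CPM of a gene for each kilobase of its counted exons). In d6PGCLCs, Lcp1 made up 64.1, 64.4, 54.1 and 55.5% of the summed plastin RPKM in replicates 1 to 4. In E12.5 PGCs its share was 6.07, 7.34, 6.61 and 7.70%. Lcp1 was thus the leading plastin in all 4 d6PGCLC libraries and the smallest in all 4 E12.5 PGC libraries. Pls3 led in E12.5 PGCs, with 60.3% ± 3.95 (SD, n = 4), and took 36.1% ± 6.01 in d6PGCLCs. Pls1 took 32.8% ± 4.57 in E12.5 PGCs and 4.35% ± 0.660 in d6PGCLCs.

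The order of the plastins changed accordingly. The ratio of Lcp1 to Pls1 in RPKM ranged from 12.13 to 15.04 across d6PGCLC libraries and from 0.154 to 0.255 across E12.5 PGC libraries. The ratio of Lcp1 to Pls3 ranged from 1.29 to 2.10 and from 0.107 to 0.124, respectively. The summed plastin level was also higher in d6PGCLCs, at 105 ± 13.4 RPKM (SD, n = 4) against 50.8 ± 3.72 RPKM, a ratio of means of 2.07. The groups did not overlap in this sum, which ran from 97.45 to 124.8 RPKM in d6PGCLCs and from 45.34 to 53.82 RPKM in E12.5 PGCs.

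**Figure D2:**
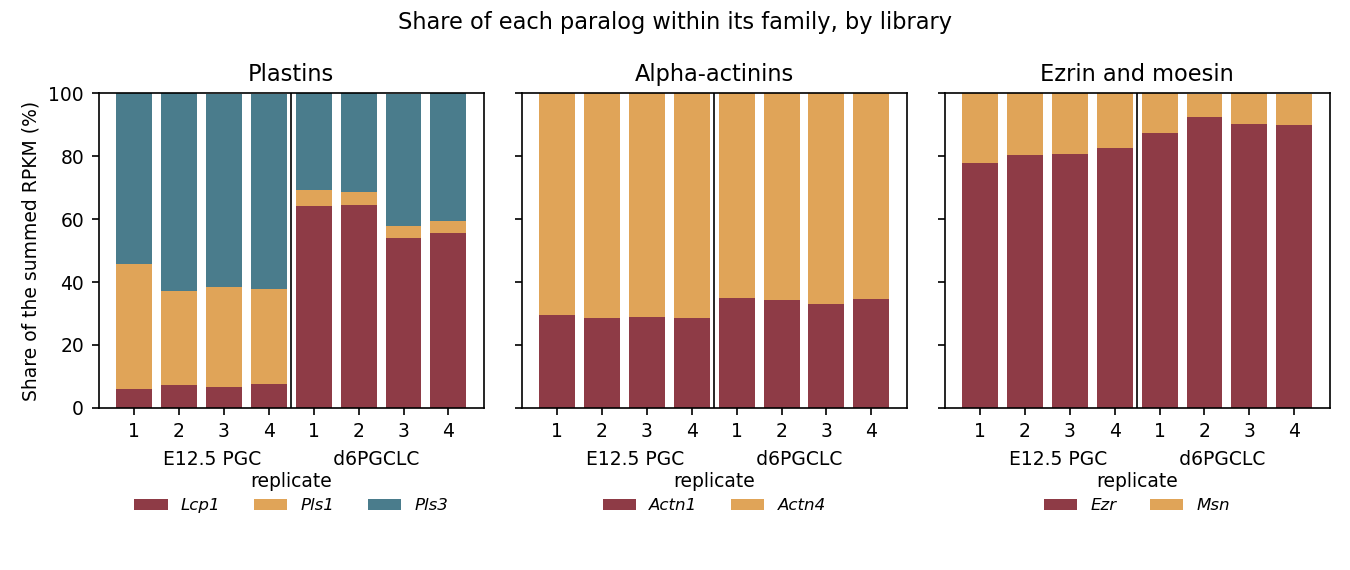
Share of each paralog in the summed RPKM of its family (vertical axis, percent) for each library, with E12.5 PGC replicates left of the line and d6PGCLC replicates right of it. Lcp1 fills 54.1 to 64.4% of the plastin bar in d6PGCLCs and 6.07 to 7.70% in E12.5 PGCs, while the alpha-actinin bars shift by a few percent of their height.

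Among the other bundlers, Fscn1 and the alpha-actinins were abundant in both cell types. Fscn1, which encodes the filopodial bundler fascin, lies on chromosome 5 (Entrez 14086; chr5:142960355-142973189, plus strand). It stood at 602.2, 574.4, 640.8 and 638.9 CPM in d6PGCLCs and at 402.2, 410.0, 395.7 and 393.0 CPM in E12.5 PGCs. The groups did not overlap, and the E12.5 PGC libraries lay closer together than for any other member, with a coefficient of variation of 1.89%. The log2 fold change was 0.62 ± 0.08 (SE).

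Actn1 and Actn4 encode the non-muscle alpha-actinins, antiparallel dimers that cross-link filaments at adhesions and in the cortex. Actn1 (Entrez 109711; chr12:80167542-80260420, minus strand) stood at 174.4, 141.2, 147.0 and 150.4 CPM in d6PGCLCs and at 107.4, 100.6, 106.0 and 107.4 CPM in E12.5 PGCs. The groups did not overlap, and the log2 fold change was 0.54 ± 0.09 (SE). Actn4 (Entrez 60595; chr7:28893248-28962351, minus strand) stood at 856.8, 715.5, 788.3 and 756.9 CPM in d6PGCLCs and at 677.3, 670.7, 690.8 and 710.3 CPM in E12.5 PGCs. Here the groups were separated only by the narrow gap between 710.3 and 715.5 CPM, and the log2 fold change was 0.18 ± 0.08 (SE). Actn4 was the more abundant alpha-actinin per length in every library, at 65.8% ± 0.828 (SD, n = 4) of their summed RPKM in d6PGCLCs and 71.1% ± 0.507 in E12.5 PGCs.

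Vil1, which encodes villin, was the least abundant member (Entrez 22349; chr1:74409384-74435560, plus strand). It stood at 5.36, 4.99, 2.82 and 3.39 CPM in d6PGCLCs and at 3.37, 1.58, 3.04 and 1.90 CPM in E12.5 PGCs. These levels rested on 15 to 49 counts per library, and the groups overlapped. The log2 fold change was 0.74 with the largest standard error of the set, 0.31.

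Of the ERM genes, Ezr was higher in d6PGCLCs and Msn was not separated. Ezr, which encodes ezrin, the ERM protein known best from epithelial microvilli, lies on chromosome 17 (Entrez 22350; chr17:6738131-6782780, minus strand). It stood at 442.8, 388.3, 395.1 and 384.0 CPM in d6PGCLCs and at 183.4, 188.6, 212.3 and 212.3 CPM in E12.5 PGCs. The groups did not overlap, and the log2 fold change of 1.01 ± 0.09 (SE, n = 4 per group) equals a 2.02-fold higher level. By size it was the largest difference in the set after those of Lcp1 and Pls1.

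Msn encodes moesin, the ERM protein that prevails in leukocytes and endothelium, and is X-linked (Entrez 17698; chrX:96096045-96168553, plus strand). It stood at 36.63, 18.22, 24.73 and 24.37 CPM in d6PGCLCs and at 29.94, 26.10, 29.04 and 25.27 CPM in E12.5 PGCs. The d6PGCLC libraries spanned a 2.01-fold range that enclosed all 4 E12.5 PGC libraries. The log2 fold change was −0.09 ± 0.17 (SE). Of the summed Ezr and Msn RPKM, Ezr took 90.0% ± 2.07 (SD, n = 4) in d6PGCLCs and 80.5% ± 2.04 in E12.5 PGCs.

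The deposited lengths limit comparisons between genes for Actn1 and Msn. Each gene was counted on an isoform drawn at random, and the deposited length was 1755 bp for Actn1 and 2055 bp for Msn, whereas the longest coding GENCODE transcripts measure 3734 bp and 3842 bp. The closest GENCODE transcript by length was annotated as a retained intron with 2 exons for Actn1, and as a processed transcript with 4 exons for Msn. For the other 7 members it was protein coding. Whether the closest transcripts were the isoforms counted was not tested. Fold changes between cell types compare the same exons, but an exon set that covers part of a gene may follow some of its isoforms only. Reads counted without strand would also include antisense transcripts, and whether the counting used strand was not given in the sources used here. Lcp1 exons overlap the opposite-strand transcripts Gm15628 by 311 bases and Gm15629 by 219 bases. Actn1 exons overlap Gm47766 by 363 bases and Gm47767 by 88, Actn4 exons overlap Capn12 by 316, Msn exons overlap Gm24718 by 136, and the overlaps of Vil1 with Usp37 and of Ezr with Sytl3 were 49 and 4 bases. The part of such reads in these levels was not tested.

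Per length, the order of the members in d6PGCLCs ran from Fscn1 at 214 ± 11.1 RPKM (SD, n = 4), through Actn4 at 168 ± 12.8, Ezr at 112 ± 7.58, Actn1 at 87.3 ± 8.30, Lcp1 at 62.1 ± 6.33, Pls3 at 38.2 ± 9.89, Msn at 12.7 ± 3.75 and Pls1 at 4.53 ± 0.682, to Vil1 at 1.06 ± 0.313 RPKM. No neighbors in this order had overlapping libraries. In E12.5 PGCs the order ran from Actn4 at 148 ± 3.76 RPKM, through Fscn1 at 139.6 ± 2.64, Actn1 at 60.0 ± 1.85, Ezr at 55.5 ± 4.27, Pls3 at 30.5 ± 1.92, Pls1 at 16.7 ± 3.28, Msn at 13.4 ± 1.10 and Lcp1 at 3.51 ± 0.333, to Vil1 at 0.631 ± 0.222 RPKM. Actn1 and Ezr overlapped there, as did Pls1 and Msn.

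Lcp1 therefore stood at rank 5 of the 9 genes in d6PGCLCs and at rank 8 in E12.5 PGCs. Without division by length, Lcp1 stood at rank 4 in d6PGCLCs and at rank 8 in E12.5 PGCs. Among all 11487 genes with a mean of at least 1 CPM, its RPKM lay at percentile 88.0 in d6PGCLCs and at percentile 28.3 in E12.5 PGCs. Pls1 made the opposite move, from percentile 31.0 in d6PGCLCs to 60.0 in E12.5 PGCs. Fscn1 and Actn4 lay between percentiles 96.3 and 98.2 in both cell types.

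The study called genes with a size of at least 2 on the log2 scale, in either direction, and an adjusted p not above 0.05, in a likelihood ratio test. Here the same thresholds were applied to edgeR's quasi-likelihood test, which called 712 genes higher and 740 lower, where the likelihood ratio test called 773 and 879. Of the 9 genes, 1 (Lcp1) met the thresholds in the quasi-likelihood test, which called 6.62% of all genes, 3.24% as higher in d6PGCLCs. At the adjusted p alone, 5 of the 9 passed (Lcp1, Fscn1, Actn1 and Ezr higher, Pls1 lower), against 31.5% of all genes. Of the genes with a mean of at least 1 CPM, 53.6% passed, 28.1% higher and 25.6% lower. The groups did not overlap for 6 of the 9 genes, these 5 and Actn4, against 30.2% of all genes and, at that level, 51.1% (27% higher and 24.1% lower). All 9 members had at least 1 CPM on average, their median log2 fold change was 0.54, and that of all 11487 genes was 0.01. With a replicate block, 7 members were higher at the adjusted p instead of 4, as Pls3, Actn4 and Vil1 passed as well. These counts use the contrast that was known when the members were gathered.

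**Figure D3:**
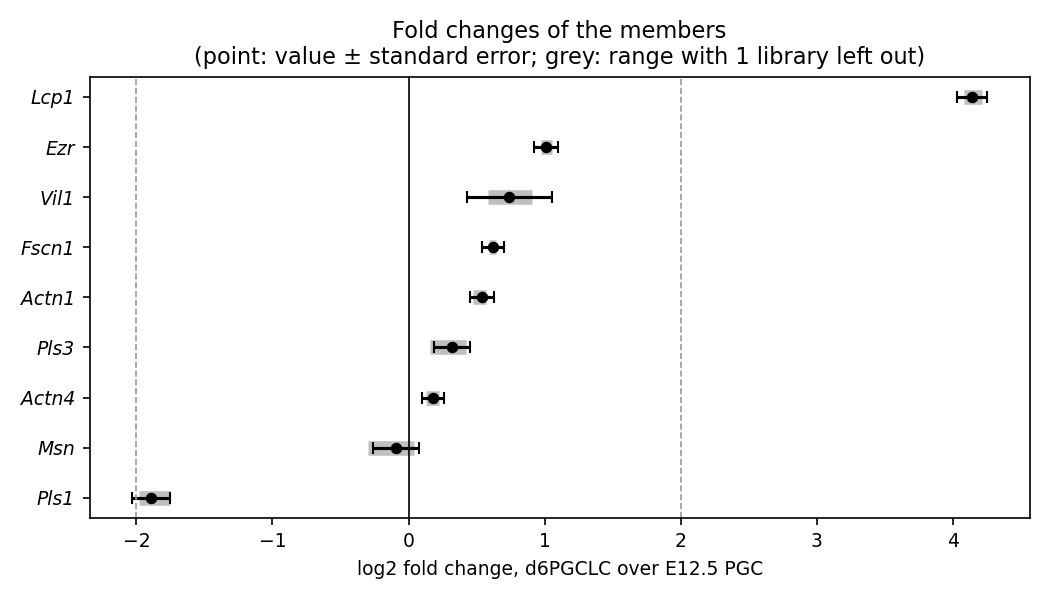
Log2 fold change of d6PGCLC over E12.5 PGC (horizontal axis) for each of the 9 genes, as point ± standard error, with a grey band for the range when 1 library is left out and dashed lines at −2 and 2. Lcp1 lies at 4.14, Pls1 at −1.89 just inside the dashed line, and the other 7 genes between −0.09 and 1.01.

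Several members were highest or lowest in the same library of a group. In d6PGCLCs, replicate 1 was the highest library for 6 of the 9 genes (Pls1, Actn1, Actn4, Vil1, Ezr and Msn), whereas Lcp1 and Pls3 were highest in replicate 4 and Fscn1 in replicate 3. In E12.5 PGCs, replicate 2, the library with the high heat-shock and erythroid genes, was the lowest for 5 of the 9 (Pls1, Pls3, Actn1, Actn4 and Vil1), and the part of those genes in these levels was not tested. The spread of Msn in d6PGCLCs rested mainly on replicate 1 at 36.63 CPM. Replicates of a group have no order, and the members share these libraries.

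Lcp1 is a marker of blood cells, so the leukocyte list was examined beside it. The 15 genes of the list summed to 19.00–24.89 CPM across d6PGCLC libraries against 8.39–14.10 CPM across E12.5 PGC libraries. The defining macrophage genes Adgre1 and Aif1 had no count in any library, the pan-leukocyte gene Ptprc had at most 1, and 7 of the 15 had at most 3 counts in every library. Cd68, a lysosomal protein of macrophages, ranged from 9.88 to 14.67 CPM in d6PGCLCs and from 1.37 to 3.79 CPM in E12.5 PGCs, and Csf1r, the receptor for macrophage colony-stimulating factor, from 1.08 to 3.06 CPM in d6PGCLCs with 0 counts in E12.5 PGCs. Other detected genes of the list lay the other way or overlapped: Itgam ranged from 4.48 to 5.82 CPM in d6PGCLCs and from 3.23 to 5.16 CPM in E12.5 PGCs, Tyrobp ranged from 0.249 to 1.09 CPM in d6PGCLCs and from 0.873 to 1.90 CPM in E12.5 PGCs, and Itgb2 from 0 to 0.611 and from 0.645 to 1.26 CPM. Most of the difference in the sum lay in Cd68: the other 14 genes, counted apart after its values were seen, summed to 7.63–10.59 and 6.64–10.31 CPM. The endothelial list summed to 27.70–40.73 and 19.09–34.30 CPM, the gonadal somatic list to 6.41–8.42 and 7.49–12.42 CPM, and the mesoderm and endoderm list to 1.74–2.68 and 10.92–15.72 CPM. Of the endothelial genes, Cdh5 was higher in every d6PGCLC library (6.64–16.49 against 3.37–5.89 CPM), and the others overlapped. Hand1, the largest part of the mesoderm and endoderm sum in E12.5 PGCs, stood at 0.249–0.814 against 6.68–9.73 CPM. T, Mixl1, Mesp1, Sox17 and Foxa2 were also lower in every d6PGCLC library. Afp overlapped, and Eomes was higher (0.364–0.894 against 0.0903–0.2495 CPM, at most 7 counts). Star, the most abundant gonadal somatic gene, overlapped at 6.006–7.658 and 5.145–6.629 CPM, as did Nr5a1, Amhr2, Tcf21 and Lhx9. Lower in every d6PGCLC library were the gonadal somatic genes Wt1 (0–0.255 against 0.451–1.68 CPM), Gata4 (0–0.255 against 0.722–1.12 CPM) and Wnt4 (0–0.364 against 0.903–1.62 CPM). So was Pdgfra (0–0.083 against 0.0903–0.749 CPM), with at most 6 counts in any library. The part of such cells in the Lcp1 levels was not tested.

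The genes whose profile across the 8 libraries lay nearest to that of Lcp1 were sought among the 11487 genes by Euclidean distance of centred log2(CPM + 1). They were Sfxn3, a mitochondrial serine transporter, at a distance of 0.565, Ldha, the lactate dehydrogenase subunit of glycolysis, at 0.634, Vwa5a at 0.702, Tdgf1, the Nodal co-receptor Cripto, at 0.725, and Pros1, the anticoagulant protein S, at 0.827. Ldha was the most abundant of these, at 934 ± 157 CPM (SD, n = 4) in d6PGCLCs, compared with 71.7 ± 5.96 CPM in E12.5 PGCs. Tdgf1 stood at 131 ± 16.2 and 6.32 ± 1.88 CPM. Their fitted log2 fold changes lay between 3.70 and 4.51, around the 4.14 of Lcp1. No other member was among these 5, and the likeness describes libraries that are split by cell type.

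The other genes of actin organization were counted in 6 lists of 149 genes, of which 144 had a row. The lists were chosen with earlier results of these data known, so their shares, medians and adjusted p-values are given as a description. In edgeR's quasi-likelihood test, 55 were higher and 25 lower in d6PGCLCs at an adjusted p of at most 0.05, and 64 did not pass. Among the 118 with a mean of at least 1 CPM, 76 passed (64.4%), against 53.6% of all genes at that level. Their median log2 fold change was 0.23, against 0.01. Changes of these genes are given from E12.5 PGCs to d6PGCLCs.

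Of the other bundlers and cross-linkers, 15 of 33 rose, 4 fell and 14 did not pass. Among the 25 with at least 1 CPM, 76% passed against 53.6% of all genes at that level, and the median log2 fold change was 0.61 against 0.01. Cnn2, a calponin that binds along filaments, rose by 1.67 ± 0.11 (SE) on the log2 scale, from 57.6 ± 5.84 to 183 ± 21.3 CPM (SD, n = 4, adjusted p = 9.34e-11). Lima1, which cross-links and stabilizes filaments, rose by 1.46 ± 0.09 (adjusted p = 7.06e-11). In the other direction, Marcks, a membrane-bound filament cross-linker, fell by 1.39 ± 0.16, from 26.8 ± 2.85 to 10.3 ± 1.63 CPM (adjusted p = 5.03e-07). Sptbn1, a beta-spectrin of the membrane skeleton, fell by 0.49 ± 0.15 (adjusted p = 0.0166), and it did not pass without d6PGCLC replicate 4 or without E12.5 PGC replicate 1. Without the latter library, 2 genes of the list fell instead of 4.

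Of the partners and regulators of ERM proteins, 3 of 26 rose, 8 fell and 15 did not pass, and at an adjusted p of at most 0.01 the counts were 2 and 5. Among the 21 with at least 1 CPM, 42.9% passed against 53.6% of all genes at that level, and the median log2 fold change was −0.01 against 0.01. Prom1, a protein of membrane protrusions, fell by 1.19 ± 0.16 on the log2 scale (adjusted p = 5.13e-06). Slc9a3r2, a scaffold bound by ERM proteins, fell by 1.12 ± 0.16 (adjusted p = 6.53e-06). Stk10, a kinase that phosphorylates ERM proteins, fell by 0.93 ± 0.14, from 37.2 ± 3.03 to 19.6 ± 2.77 CPM (adjusted p = 1.39e-05). Ppp1cb, a phosphatase subunit that acts on them through myosin phosphatase, rose by 0.32 ± 0.08 (adjusted p = 0.00429).

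Of the filament nucleators, 10 of 28 rose, 6 fell and 12 did not pass. With a length offset 9 rose and 10 fell, so that falls outnumbered rises, and at an adjusted p of at most 0.01 the counts were 5 and 4. Among the 26 with at least 1 CPM, 61.5% passed against 53.6% of all genes at that level, and the median log2 fold change was 0.20 against 0.01. Actr2, a core subunit of the Arp2/3 complex, rose by 1.16 ± 0.13 on the log2 scale (adjusted p = 2.73e-07), and Arpc2 of the same complex by 0.40 ± 0.09 (adjusted p = 0.00105). The WAVE subunits, which activate this complex, split: Wasf2 rose by 0.64 ± 0.11 (adjusted p = 7.78e-05), Wasf1 fell by 0.62 ± 0.09 (adjusted p = 1.25e-05) and Wasf3 fell by 0.47 ± 0.12 (adjusted p = 0.00315). Fmn2, a formin of the oocyte, fell by 2.64 ± 0.18, from 35.1 ± 3.55 to 5.59 ± 1.43 CPM (adjusted p = 1.69e-10).

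Of the genes of filament turnover and side binding, 18 of 34 rose, 5 fell and 11 did not pass. Among the 29 with at least 1 CPM, 75.9% passed against 53.6% of all genes at that level, and the median log2 fold change was 0.53 against 0.01. Tpm4, a tropomyosin that coats filaments, rose by 3.06 ± 0.19 on the log2 scale, from 5.91 ± 1.65 to 49.0 ± 10.2 CPM (adjusted p = 8.47e-11). Capg, a capping protein of the gelsolin family to which villin belongs, rose by 1.97 ± 0.12, from 34.7 ± 4.23 to 136 ± 17.4 CPM (adjusted p = 3.10e-11). Limk2, a kinase that inactivates cofilin, rose by 1.34 ± 0.09 (adjusted p = 4.72e-10). Tmod2, which caps pointed filament ends, fell by 2.16 ± 0.18, from 30.2 ± 5.26 to 6.79 ± 1.43 CPM (adjusted p = 4.49e-09). The monomer-binding profilin Pfn2 fell by 0.86 ± 0.17 (adjusted p = 0.000443), and the barbed-end capping subunit Capza1 by 0.58 ± 0.11 (adjusted p = 0.000374).

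Of the 5 actins counted, 1 rose and 4 did not pass, against 31.5% of all genes passing. Without E12.5 PGC replicate 2, 2 actins rose. Actb, the main cytoplasmic actin, had a mean of 3292 ± 148 CPM in d6PGCLCs and of 2974 ± 161 CPM in E12.5 PGCs, with a log2 fold change of 0.15 ± 0.08 (adjusted p = 0.184). Only uniquely mapped reads were counted, so that levels of Actb, which has processed pseudogenes, are uncertain. Of the muscle actins, Actc1 rose by 1.17 ± 0.43 (adjusted p = 0.0411) at 2.59 ± 1.12 and 1.15 ± 0.605 CPM, and it did not pass when d6PGCLC replicate 1, 2 or 4 or E12.5 PGC replicate 3 or 4 was left out, nor with total counts in place of TMM or with a length offset. Acta1 and Acta2 did not pass (adjusted p = 0.292 and 0.199) at means below 0.74 CPM, and Actg2 had no counts. Actg1 was not analysed here.

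Integrin adhesion adaptors, which join filaments to the matrix, had 8 of 18 higher, 2 lower and 8 not passing. Among the 15 with at least 1 CPM, 60% passed against 53.6% of all genes at that level, and the median log2 fold change was 0.08 against 0.01. Pxn, the adhesion scaffold paxillin, rose by 1.70 ± 0.16 on the log2 scale, from 12.7 ± 1.09 to 41.2 ± 9.28 CPM (adjusted p = 2.57e-08). Lims1 rose by 0.58 ± 0.08 (adjusted p = 1.14e-05), and Tes by 0.57 ± 0.10 (adjusted p = 7.35e-05). Tln2, a talin that activates integrins, fell by 0.86 ± 0.12 (adjusted p = 1.01e-05), or by 0.56 with a length offset, and Ilk, which forms a complex with Lims1, fell by 0.39 ± 0.10 (adjusted p = 0.00255).

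By the same fold and p thresholds, 4 of the 144 genes were called higher (Tagln3, Arhgdib, Tpm2 and Tpm4) and 4 lower (Icam2, Fmn2, Tmod2 and Cap2), together 5.56%, a share close to the 6.62% of all genes. With a length offset Tmod2 fell by 1.94 and was not called. Of these, Tagln3, Arhgdib, Tpm2, Icam2 and Cap2 are named after their values were seen. Tagln3, a calponin-family protein, stood at 13.9 ± 1.05 and 1.20 ± 0.452 CPM (SD, n = 4), and at 3.55 ± 0.27 on the log2 scale (adjusted p = 3.71e-10) it lay nearest to Lcp1 among the listed genes. Arhgdib, Tpm2, Icam2 and Cap2 had at most 20 counts in any library.

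**Figure D4:**
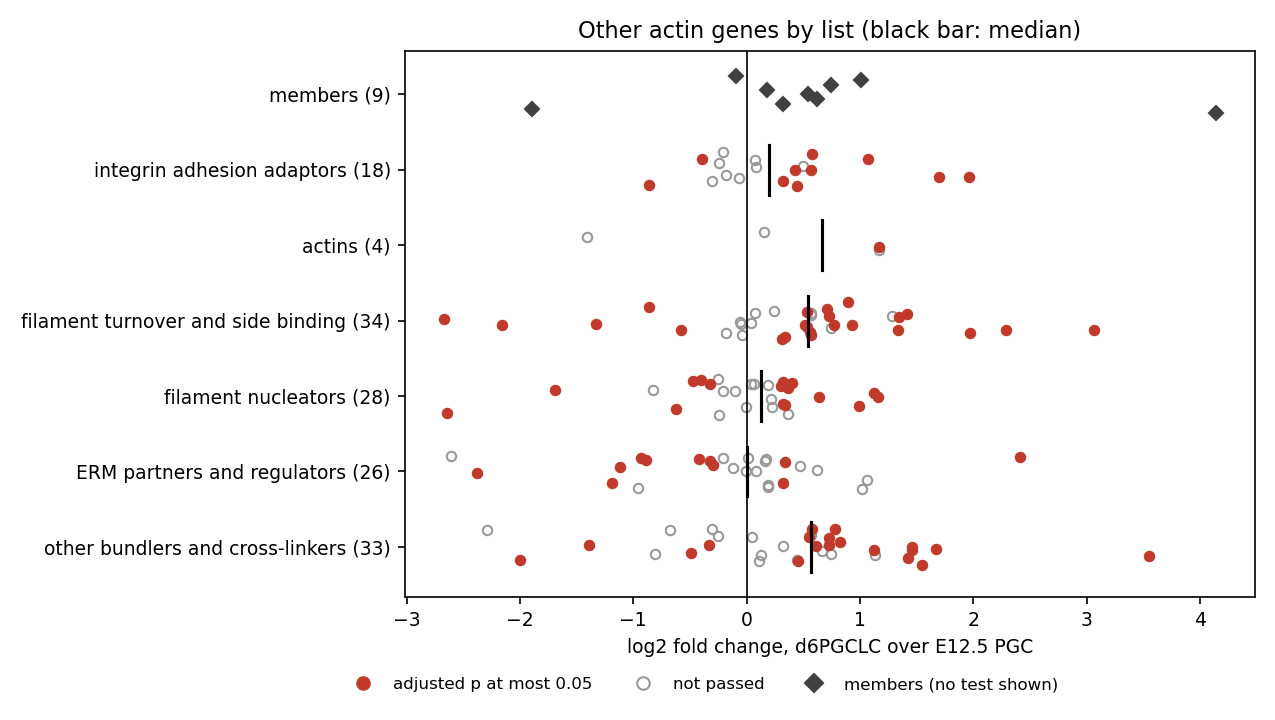
Log2 fold change of d6PGCLC over E12.5 PGC (horizontal axis) for the 143 listed genes with a count, by list with the number plotted in brackets, filled red where the adjusted p was at most 0.05 and open where it was not, with the median as a black bar; the 9 plastin, bundler and ERM genes are shown as diamonds without a test. The median of the ERM partners lies near 0 and those of the other lists to the right of 0, and Lcp1 at 4.14 lies beyond every listed gene.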

How the data were processed

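RNA was measured in 4 d6PGCLC and 4 E12.5 PGC libraries (TruSeq Stranded mRNA, single-end reads). The deposited values are raw read counts per Entrez gene, from uniquely mapped reads: the authors aligned reads with STAR to GRCm38 (mm10, as the submitters' processing notes also name), drew 1 isoform per gene at random and counted its exons with QuasR. Whether the counting used strand is not given in the sources used here. The deposited exonic length, which exceeded the transcript length by exactly 40 bp per exon for 2048 of 4910 genes with 1 GENCODE transcript, was used for RPKM.

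Symbols came from RefSeq for 21907 of the 21950 genes. Counts were fitted in R 4.3.3 with edgeR 4.0.16 (TMM, glmQLFit and glmQLFTest, prior count 0.125, no filter, cell type as the only term), and p-values were adjusted by Benjamini-Hochberg over all 21950 genes. SEs came from the inverse information scaled by the posterior variance of the quasi-likelihood fit. CPM used TMM-scaled library sizes. The limit of 3 counts covers counting error only. On simulated counts for this comparison, run on all 21950 genes, 200 of 200 changed genes passed in the right direction and 8 of 21750 unchanged genes passed. The planted changes all reached the study's fold threshold, lay in genes well above the limit of 3 counts, and used the same dispersion throughout. Power for smaller changes or for genes near that limit was therefore not measured. Replicate libraries all differed by more than counting error (chi-square divided by its degrees of freedom, 3.19 to 20.8).

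The members, the 6 actin lists and the marker lists were chosen with earlier results of these data known. Named actin genes were up to 3 per list and direction with the largest change among those that passed, averaging 100 counts or more, whose groups did not overlap. All actins and the 5 genes nearest to Lcp1 were named as well. Values of 1 gene that this rule names are not reported here. Alternatives were DESeq2 1.42.0, the likelihood ratio test, other size factors, 2 filters on low counts, a prior count of 2, a stricter p, a replicate block, a length offset, values without length division and leaving out each library.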

Additional observations from a re-analysis of the deposited data

How the results depend on the processing

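The fold change of Lcp1 held in every one of the 17 alternative fits, at 4.08 to 4.21 when 1 library was left out and 4.11 to 4.14 otherwise, and Pls1 stayed between −1.98 and −1.75. Of 153 alternative values of the members' fold changes, 151 stayed within the replicate spread. The exceptions were Fscn1 (0.53) and Actn1 (0.42) under a length offset, and the cause was not tested. Msn, which passed in no fit, ranged from −0.30 to 0.04. Whether the replicate numbers pair the libraries was not settled. Deviations of same-numbered libraries correlated at 0.302, 0.114, −0.0382 and 0.0411 for replicates 1 to 4, over 11487 genes. Differently numbered libraries ranged from −0.199 to 0.143, so only the pair numbered 1 lay above that range. With the replicate block, 7 members were higher at an adjusted p of at most 0.05 instead of 4, as Pls3, Actn4 and Vil1 passed. With 1 library left out this count was 4 to 5: Pls3 passed without d6PGCLC replicate 1 or 2, and Vil1 without d6PGCLC replicate 3 or E12.5 PGC replicate 1. The counts of 55 higher and 25 lower listed genes became 49 to 54 and 21 to 26 with 1 library left out. At an adjusted p of at most 0.01, 5 nucleators were higher instead of 10, 2 bundlers lower instead of 4 and 5 ERM partners lower instead of 8. With a length offset, 9 nucleators were higher instead of 10 and 10 lower instead of 6, which turns the balance. Over all genes, the fold rule called 712 higher and 740 lower, but 464 and 383 after filterByExpr, 450 and 382 with a prior count of 2, and 435 lower with a CPM filter. The share of Lcp1 among plastins in E12.5 PGCs was 7.66% of counts without division by length, against 6.93% per length. Shares that rest on the short isoforms moved most: Actn1 took 16.4% of alpha-actinin counts in d6PGCLCs against 34.2% of their RPKM, and Msn took 12.2% of the summed Ezr and Msn counts in E12.5 PGCs against 19.5% of their RPKM. Depth limits Vil1, with 15 to 49 counts per library, more than the other members.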
